A study of Macaca mulatta with 9 samples.

Results

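Chemokine receptors are the seven-pass membrane proteins by which blood leukocytes sense chemokines and leave the circulation. The 9 genes described here are CCR1, CCR2, CCR4, CCR6, CCR9, CXCR3, CXCR4, CXCR6 and CX3CR1. They were taken by name from a deposited table of 24371 genes, and 9 of 9 were found. The table comes from RNA sequencing of whole blood of 9 rhesus macaques (Macaca mulatta), 1 library per animal. Of these, 3 animals received extracellular vesicles (EV) from antler blastema progenitor cells (ABPC_EV), 3 received EV named FBMSC (FBMSC_EV, an abbreviation the labels do not spell out), and 3 received PBS. The genotype is WT in all 3 groups, and the sample descriptions of the PBS animals call them Old. The labels give no dose, number of injections, duration or age.

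When a chemokine binds, its receptor activates an inhibitory G protein, and the G protein's subunits turn on the kinases, small GTPases and integrins that move the cell. Each receptor marks particular leukocytes, as known from humans and mice. CCR1 and CCR2 serve monocytes, and CCR1 also neutrophils. CX3CR1 marks patrolling monocytes and cytotoxic lymphocytes, CXCR4 is found on most leukocytes and holds cells in the bone marrow, and CXCR3, CXCR6, CCR4, CCR6 and CCR9 direct subsets of T cells to inflamed tissue, skin, mucosa or gut.

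The deposited values are log2 values; back-transformed, they are per-million values, corrected for gene length. Because each library's total is fixed, the values of all other genes move with the share of an abundant transcript. Erythroid transcripts took 71.3% to 82.9% of the total in ABPC_EV libraries, 82.9% to 88.0% in FBMSC_EV libraries and 88.7% to 93.1% in PBS libraries. The values are therefore given as deposited and again after median-ratio scaling, in which each library is divided by the median of its ratios to the gene-wise geometric means over 13350 genes. The scaling factors were 1.52 to 2.52 under ABPC_EV, 0.957 to 1.21 under FBMSC_EV and 0.330 to 0.767 under PBS. Reads recovered from the values numbered 6.13 M to 7.48 M under ABPC_EV, 4.81 M to 5.92 M under FBMSC_EV and 2.45 M to 3.77 M under PBS, outside 30 genes that include the main globins. PBS replicate 1 had the fewest genes at a value of 1 or more (5393) and the smallest factor. In whole blood, fewer cells of a type and less RNA per cell cannot be told apart.

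As deposited, the receptors stood higher under ABPC_EV than under PBS, together with most of the transcriptome. All 9 receptors rose in ABPC_EV against PBS (limma with Benjamini-Hochberg adjustment over 10596 genes, threshold 0.05), where 90.9% of all genes tested also rose, and in 9 of 9 the groups did not overlap, as in 85.4% of all genes. The median log2 fold change was 1.60 over the receptors and 1.41 over all genes. After scaling, 0 of 9 receptors passed in this comparison, as did 0.0% of all genes, although 1080 genes had an unadjusted p under 0.05. The scaled median was 0.23 over the receptors and 0.00 over all genes, with 7 of 9 receptors above that of all genes. The count of receptors called as deposited is thus close to the background.

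CX3CR1, the receptor of the membrane-bound chemokine fractalkine, had the largest log2 difference of the 9 receptors between ABPC_EV and PBS, and between FBMSC_EV and PBS, on both scales. As deposited, CX3CR1 had per-million values of 52.8, 50.9 and 172 in ABPC_EV replicates 1 to 3, 16.9, 61.9 and 32.8 in FBMSC_EV replicates, and 2.87, 11.02 and 10.5 in PBS replicates. Every library of either EV group lay above every PBS library, and ABPC_EV replicate 3 was the highest. The log2 fold change of CX3CR1 was 3.28 in ABPC_EV against PBS (SE 0.54, limma adjusted p = 0.000417). On log2(value + 1), a scale that understates the change of low genes, 4 of the 10596 genes had a higher one. In FBMSC_EV against PBS the log2 fold change of CX3CR1 was 2.05 (SE 0.54, adjusted p = 0.0778), which did not pass, and 11 genes had a higher one. Whether it passed there depended on the fit. Its limma adjusted p ran over 0.000836 to 0.319 with 1 library left out, while the genes called ran over 13 to 4562. With the spread estimated from these 2 groups alone it was 0.0041, beside 1063 genes called.

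After scaling, CX3CR1 had per-million values of 34.7, 23.5 and 68.4 in ABPC_EV replicates, 17.2, 51.3 and 34.2 in FBMSC_EV replicates, and 8.68, 23.4 and 13.7 in PBS replicates. The ABPC_EV and PBS libraries still did not overlap, by a narrow margin (23.51 in the lowest ABPC_EV library and 23.45 in the highest PBS library); this was so in the upward direction for 1 of 9 receptors and for 6.45% of all genes. The scaled mean was 42.2 ± 23.4 under ABPC_EV and 15.3 ± 7.51 under PBS (SD, n = 3 each). CX3CR1's scaled log2 fold change was 1.38 in ABPC_EV against PBS (95% interval 0.245 to 2.51, limma unadjusted p = 0.0221, adjusted p = 0.373), so it did not pass after adjustment. On this scale 19 of the 10596 genes had a higher one, and on the recovered reads (limma-voom) 109 of 10576 genes did. In FBMSC_EV against PBS the scaled log2 fold change of CX3CR1 was 1.09 (95% interval -0.0411 to 2.22, adjusted p = 0.998), with 54 genes higher. On the recovered reads 203 genes were higher there. Without ABPC_EV replicate 3 the scaled value in ABPC_EV against PBS was 0.96.

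Among 9217 genes with a symbol and a test, PRF1 had the scaled pattern most like that of CX3CR1 over the 9 libraries, with a root mean square difference of 0.201 on the log2 scale against a spread of CX3CR1 about its own mean of 0.844. PRF1 encodes perforin, the pore-forming protein of cytotoxic lymphocytes. The scaled value of PRF1 was 47.4, 30.6 and 96.2 in ABPC_EV replicates, 26.6, 83.6 and 35.0 in FBMSC_EV replicates, and 13.7, 29.1 and 15.8 in PBS replicates. PRF1 was picked for its likeness to CX3CR1 over these same libraries, so shared peaks are no separate result. The highest library of each group was the same one for both genes. The summed scaled level of the 15 cytotoxic and NK cell markers, which include PRF1 itself, peaked in those libraries, at 448 in ABPC_EV replicate 3, 588 in FBMSC_EV replicate 2 and 389.9 in PBS replicate 2. Of the 11 cell marker lists, the T cell list also had its highest sums in these libraries, at 397 in ABPC_EV replicate 3, 271 in FBMSC_EV replicate 2 and 201 in PBS replicate 2. The range of the cytotoxic and NK cell sum was 229 to 448 under ABPC_EV, 245 to 588 under FBMSC_EV and 144 to 389.9 under PBS, and none of the 15 markers was at 0 in any library. The summed scaled level of the 10 monocyte markers was 339 to 454 under ABPC_EV, 416 to 1255 under FBMSC_EV and 381 to 613 under PBS. The part of these cells in the level of CX3CR1 was not tested.

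**Figure D1:**
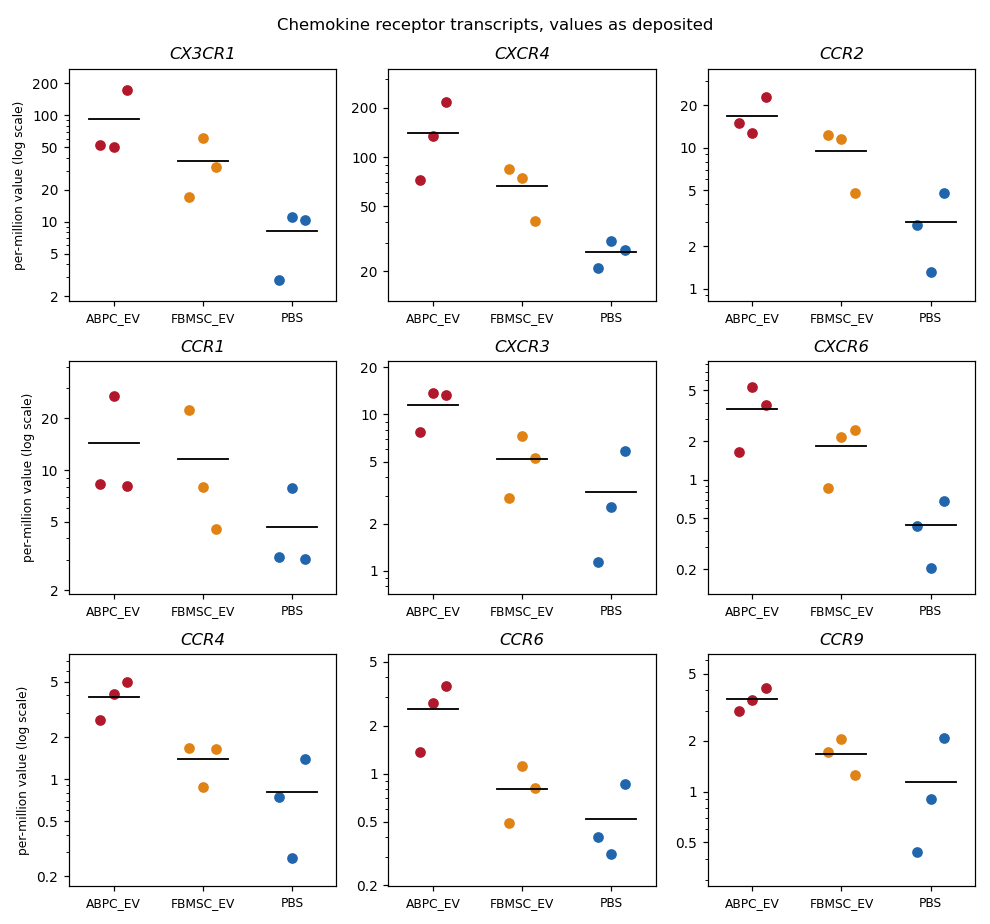
Per-million value of each receptor as deposited (log axis) in the 3 libraries of ABPC_EV, FBMSC_EV and PBS; points are libraries 1 to 3 from left to right and black bars are group means. In all 9 panels the ABPC_EV points lie above the PBS points, and CX3CR1 spans 2.87 to 172.

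CXCR4, the receptor of CXCL12, was the most abundant of the 9 receptors in every library. As deposited, CXCR4 had per-million values of 71.9, 134 and 217 in ABPC_EV replicates, 84.6, 74.9 and 40.5 in FBMSC_EV replicates, and 21.0, 30.8 and 27.2 in PBS replicates. It rose in ABPC_EV against PBS by a log2 fold change of 2.26 (SE 0.47, adjusted p = 0.000437), which 169 genes exceeded. After scaling, CXCR4 had 47.3, 62.0 and 86.2 in ABPC_EV replicates, 85.9, 62.1 and 42.3 in FBMSC_EV replicates, and 63.6, 65.6 and 35.5 in PBS replicates. The 3 groups overlapped throughout, and the scaled log2 fold change was 0.25 in ABPC_EV against PBS (95% interval -0.563 to 1.07) and 0.20 in FBMSC_EV against PBS (95% interval -0.618 to 1.014). The gene with the closest scaled pattern was TPST2, a tyrosylprotein sulfotransferase, at a root mean square difference of 0.173.

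CCR2 takes classical monocytes out of the bone marrow towards CCL2. As deposited, CCR2 had per-million values of 14.96, 12.7 and 22.8 in ABPC_EV replicates, 12.3, 11.6 and 4.79 in FBMSC_EV replicates, and 2.85, 1.31 and 4.75 in PBS replicates. FBMSC_EV replicate 3 lay just above PBS replicate 3. The log2 fold change of CCR2 was 2.23 in ABPC_EV against PBS (SE 0.42, adjusted p = 0.000417), where it rose, and 1.42 in FBMSC_EV against PBS (SE 0.42, adjusted p = 0.0876), where it did not pass. After scaling, CCR2 had 9.83, 5.88 and 9.07 in ABPC_EV replicates, 12.5, 9.65 and 5.002 in FBMSC_EV replicates, and 8.62, 2.78 and 6.19 in PBS replicates, and the groups overlapped. The scaled log2 fold change was 0.51 in ABPC_EV against PBS (95% interval -0.37 to 1.39) and 0.57 in FBMSC_EV against PBS (95% interval -0.305 to 1.45). The labels do not say how reads that match CCR2 and another gene equally were counted. The closest scaled pattern to CCR2 was that of REL, which encodes an NF-kappaB subunit, at 0.190.

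CCR1 binds CCL3 and CCL5 among other inflammatory chemokines. As deposited, CCR1 had per-million values of 8.33, 27.0 and 8.13 in ABPC_EV replicates, 22.5, 8.03 and 4.52 in FBMSC_EV replicates, and 3.11, 7.91 and 3.05 in PBS replicates. Within each group 1 library stood well above the other 2. Its log2 fold change of 1.34 in ABPC_EV against PBS (SE 0.50, adjusted p = 0.0161) was below the median of all genes, and the call was lost without ABPC_EV replicate 2 (0.80, adjusted p = 0.0858), without PBS replicate 1 (adjusted p = 0.0637) and without PBS replicate 3 (adjusted p = 0.0903). After scaling, CCR1 had 5.48, 12.4 and 3.23 in ABPC_EV replicates, 22.9, 6.66 and 4.72 in FBMSC_EV replicates, and 9.41, 16.8 and 3.97 in PBS replicates. Its scaled log2 fold change was the lowest of the 9 receptors in ABPC_EV against PBS, at -0.44 (95% interval -1.87 to 0.981), and in ABPC_EV against FBMSC_EV, at -0.50 (95% interval -1.93 to 0.921), and neither passed.

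The summed scaled level of the 15 neutrophil markers was highest in the libraries in which CCR1 was highest, at 1519 in ABPC_EV replicate 2, 3733 in FBMSC_EV replicate 1 and 2578 in PBS replicate 2. The platelet list of 10 markers also had its highest sums in these libraries, at 409 in ABPC_EV replicate 2, 244 in FBMSC_EV replicate 1 and 209 in PBS replicate 2. The range of the neutrophil sum was 489 to 1519 under ABPC_EV, 784 to 3733 under FBMSC_EV and 689 to 2578 under PBS, with no marker at 0. CXCR1, an interleukin-8 receptor of neutrophils, peaked in the same libraries at scaled values of 93.2 under ABPC_EV, 109 under FBMSC_EV and 111 under PBS. The part of neutrophils or platelets in the level of CCR1 was not tested. Of the 36 pairs among the 9 receptors, CCR1 and CX3CR1 had the least similar scaled patterns, with a root mean square difference of 1.41, and CCR9 and CXCR3 the most similar, with 0.285.

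**Figure D2:**
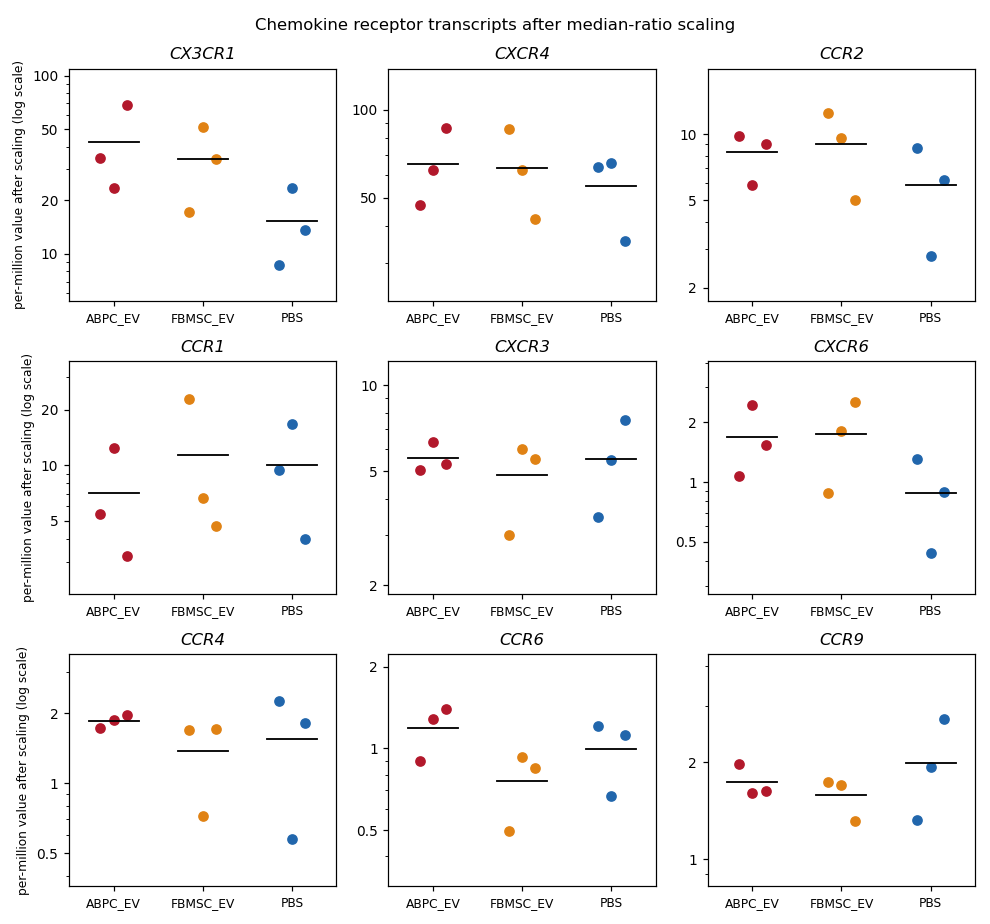
Per-million value of each receptor after median-ratio scaling (log axis), with libraries 1 to 3 from left to right and black bars at the group means. The ABPC_EV and PBS points of CX3CR1 are apart only by the gap between 23.51 and 23.45, and those of the other 8 receptors overlap.

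Among the receptors of T cell subsets, CXCR3, which binds the interferon-induced chemokines CXCL9, CXCL10 and CXCL11, was the most abundant. As deposited, CXCR3 had per-million values of 7.67, 13.7 and 13.3 in ABPC_EV replicates, 2.94, 7.23 and 5.29 in FBMSC_EV replicates, and 1.14, 2.58 and 5.80 in PBS replicates. It rose in ABPC_EV against PBS (log2 fold change 1.71, SE 0.42, adjusted p = 0.000906). Its scaled levels of 5.04 to 6.32 under ABPC_EV lay inside those of PBS, 3.46 to 7.57, and its scaled log2 fold change was 0.06 (95% interval -0.576 to 0.690). Under FBMSC_EV the scaled levels were 2.99 to 5.997. The summed scaled level of the 13 T cell markers was 173 to 397 under ABPC_EV, 109 to 271 under FBMSC_EV and 131 to 201 under PBS, with no marker at 0, and the part of T cells in the levels of CXCR3, CXCR6, CCR4, CCR6 and CCR9 was not tested.

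CXCR6, the receptor of CXCL16 on activated and tissue-resident T cells, was listed at per-million values of 1.64, 5.28 and 3.85 in ABPC_EV replicates, 0.869, 2.17 and 2.43 in FBMSC_EV replicates, and 0.434, 0.205 and 0.680 in PBS replicates. These rest on 69, 151 and 122 recovered reads under ABPC_EV, 38, 94 and 115 under FBMSC_EV, and 24, 12 and 31 under PBS. CXCR6 was under 1 in every PBS library, so it passed the filter on low values (at least 1 in 3 or more libraries) only through the EV groups, as did CCR6; this held for 1961 of the 10596 genes tested (18.5%). CXCR6 rose in ABPC_EV against PBS as deposited (log2 fold change 1.60, SE 0.34, adjusted p = 0.000463), and after scaling, at 1.08 to 2.44 under ABPC_EV, 0.882 to 2.54 under FBMSC_EV and 0.437 to 1.31 under PBS, its log2 fold change was 0.51 in ABPC_EV against PBS (95% interval -0.129 to 1.15) and 0.52 in FBMSC_EV against PBS (95% interval -0.114 to 1.16). In the RefSeq annotation CXCR6 overlaps FYCO1, which encodes an autophagy adaptor, and whether the counting used strand is not stated. The ratio of CXCR6 to FYCO1 reads was 0.176, 0.524 and 0.231 in ABPC_EV replicates, 0.273, 0.311 and 0.535 in FBMSC_EV replicates, and 0.338, 0.105 and 0.188 in PBS replicates. Whether some of the CXCR6 reads came from FYCO1 transcripts was not tested.

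CCR4 binds CCL17 and CCL22 and is carried by regulatory, type 2 and skin-homing T cells. As deposited, CCR4 had per-million values of 2.64, 4.05 and 4.96 in ABPC_EV replicates, 1.67, 0.878 and 1.64 in FBMSC_EV replicates, and 0.745, 0.271 and 1.39 in PBS replicates. It rose in ABPC_EV against PBS (log2 fold change 1.46, SE 0.32, adjusted p = 0.00052). After scaling, CCR4 lay between 1.73 and 1.97 under ABPC_EV, between 0.728 and 1.72 under FBMSC_EV and between 0.577 and 2.26 under PBS. It was the only receptor whose scaled ABPC_EV and FBMSC_EV libraries did not overlap, as was the case, in the upward direction, for 4.23% of all genes.

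CCR6, the CCL20 receptor of Th17 and B cells, had per-million values of 1.36, 2.78 and 3.51 in ABPC_EV replicates, 0.489, 1.12 and 0.810 in FBMSC_EV replicates, and 0.400, 0.315 and 0.856 in PBS replicates. CCR9, the CCL25 receptor of gut-homing lymphocytes, had 3.01, 3.48 and 4.10 in ABPC_EV replicates, 1.72, 2.06 and 1.26 in FBMSC_EV replicates, and 0.439, 0.910 and 2.09 in PBS replicates. CCR6 was under 1 in every PBS library, so it passed the filter on low values only through the EV groups. Both CCR6 and CCR9 rose in ABPC_EV against PBS as deposited, beside 90.9% of all genes. The log2 fold changes were 1.19 for CCR6 (SE 0.30, limma adjusted p = 0.00125) and 1.14 for CCR9 (SE 0.32, adjusted p = 0.00256). On this scale of log2(value + 1), which understates the change of low genes, these were the smallest values of the 9 receptors and below the median of all genes. The plain ratio of group means was 4.88 for CCR6, above the 3.64 of CXCR3, and 3.08 for CCR9. After scaling the ranges overlapped for both CCR6 and CCR9. CCR6 ran over 0.897 to 1.40 under ABPC_EV, 0.496 to 0.930 under FBMSC_EV and 0.671 to 1.21 under PBS, and CCR9 over 1.61 to 1.98 under ABPC_EV, 1.31 to 1.74 under FBMSC_EV and 1.33 to 2.73 under PBS. The scaled log2 fold change of CCR6 was 0.14 (95% interval -0.275 to 0.549) and that of CCR9 was -0.11 (95% interval -0.533 to 0.319). In the RefSeq annotation CCR9 overlaps LOC144339135, and whether the 2 genes shared reads was not tested. Counting error is large for several receptors in their lowest library, which was a PBS library with 10 recovered reads for CCR4, 12 for CXCR6, 25 for CCR6, 26 for CXCR3, 31 for CCR2 and 31 for CCR9.

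Levels per length could be ordered within each group. On both scales CXCR4 stood first and CX3CR1 next in all 3 groups, and CXCR4 exceeded CX3CR1 in 9 of 9 libraries, although their ranges overlapped under ABPC_EV and FBMSC_EV. The range of CX3CR1 stood clear of the next receptor under ABPC_EV and overlapped it under FBMSC_EV and PBS. CCR1, CCR2 and CXCR3 followed, with ranges that overlapped between neighbours. CCR4, CCR6, CCR9 and CXCR6 came last, and their ranges overlapped too. The gap between CXCR3 and the next gene below it was free of overlap under ABPC_EV and FBMSC_EV on both scales, and under PBS on the scaled values.

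A share of the summed level of the 9 receptors does not depend on the scaling of a library. CXCR4 made up 43.8%, 52.8% and 48.2% of this sum in ABPC_EV replicates, 58.7%, 44.1% and 43.1% in FBMSC_EV replicates, and 63.7%, 55.7% and 48.3% in PBS replicates. CX3CR1 made up 32.1%, 20.04% and 38.3% in ABPC_EV replicates, 11.8%, 36.4% and 34.9% in FBMSC_EV replicates, and 8.69%, 19.9% and 18.6% in PBS replicates. The CX3CR1 share averaged 30.1% ± 9.28 under ABPC_EV and 15.7% ± 6.13 under PBS (SD, n = 3 each), and the groups did not overlap, with ABPC_EV replicate 2 next to PBS replicate 2. A two-sided exact permutation test gave p = 0.1, the smallest that 3 against 3 libraries allow, and 0.9 after adjustment over the 27 shares compared. FBMSC_EV replicate 1 had a CX3CR1 share inside the PBS range, and the other FBMSC_EV libraries lay above it. The ratio of CX3CR1 to CXCR4 was 0.734, 0.379 and 0.794 in ABPC_EV replicates, 0.200, 0.827 and 0.810 in FBMSC_EV replicates, and 0.136, 0.357 and 0.385 in PBS replicates, where ABPC_EV replicate 2 lay below PBS replicate 3.

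**Figure D3:**
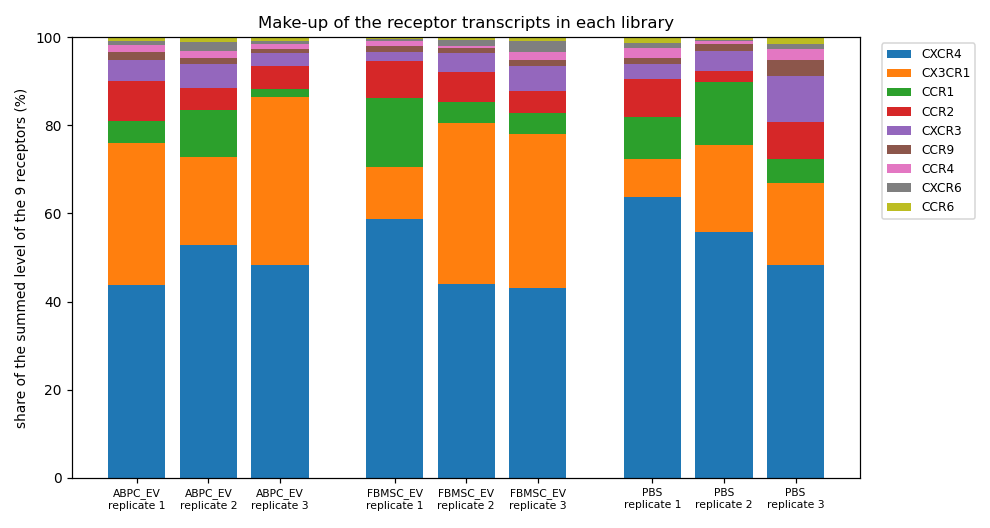
Share of each receptor (percent) in the summed per-million level of the 9 receptors, 1 stacked bar per library, grouped as ABPC_EV, FBMSC_EV and PBS. CXCR4 and CX3CR1 fill most of each bar, and CX3CR1 takes 20.04% to 38.3% under ABPC_EV and 8.69% to 19.9% under PBS.

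In FBMSC_EV against PBS, 0 of 9 receptors passed in either direction on the values as deposited, beside 0.264% of all genes (0.255% rose). CCR2, CX3CR1, CXCR4 and CXCR6 were higher in all FBMSC_EV libraries than in any PBS library, which is 4 of 9 receptors beside 50.9% of all genes. The median log2 fold change was 0.94 over the receptors and 0.70 over all genes. The highest values after CX3CR1 were those of CCR2 at 1.42 and CXCR4 at 1.26, and the lowest was that of CCR6 at 0.25 (limma adjusted p = 0.467). This order is that of log2(value + 1), which understates the change of low genes. By the plain ratio of group means, CXCR6 at 4.15 stood above CCR2 at 3.23 and CXCR4 at 2.53. CCR9 at 1.46 stood below CCR6 at 1.54. With the spread estimated from these 2 groups alone 4 receptors passed, beside 1063 of the 10596 genes, and without PBS replicate 3 also 4, beside 43.3% of all genes. After scaling 0 of 9 passed (0.0% of all genes; 512 genes had an unadjusted p under 0.05) and 0 of 9 had groups without overlap in the upward direction (4.96% of all genes). The scaled log2 fold changes ran from -0.19 for CCR9 to 1.09 for CX3CR1, with a median of 0.06 over the receptors and 0.02 over all genes.

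In ABPC_EV against FBMSC_EV, 0 of 9 receptors passed in either direction as deposited, beside 0.642% of all genes (0.585% rose). CCR2, CCR4, CCR6, CCR9 and CXCR3 had no overlap and were higher under ABPC_EV, which is 5 of 9 receptors beside 50.5% of all genes. The log2 fold changes as deposited ran from 0.34 for CCR1 to 1.22 for CX3CR1, with a median of 0.94 over the receptors and 0.71 over all genes. By the plain ratio of group means, CCR6 at 3.16 and CCR4 at 2.78 stood above CX3CR1 at 2.47. CCR4 at 1.02 and CCR6 at 0.94 had the smallest adjusted p (0.0737 for each). Leaving out ABPC_EV replicate 1 made 6 receptors pass, beside 45.8% of all genes, and leaving out PBS replicate 3 made 4 pass, beside 25.7% of all genes. After scaling 0 of 9 passed (0.0% of all genes; 568 genes had an unadjusted p under 0.05), and the log2 fold changes ran from -0.50 for CCR1 to 0.32 for CCR6 (95% interval of CCR6 -0.0918 to 0.733). Both EV comparisons use the same PBS libraries.

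**Figure D4:**
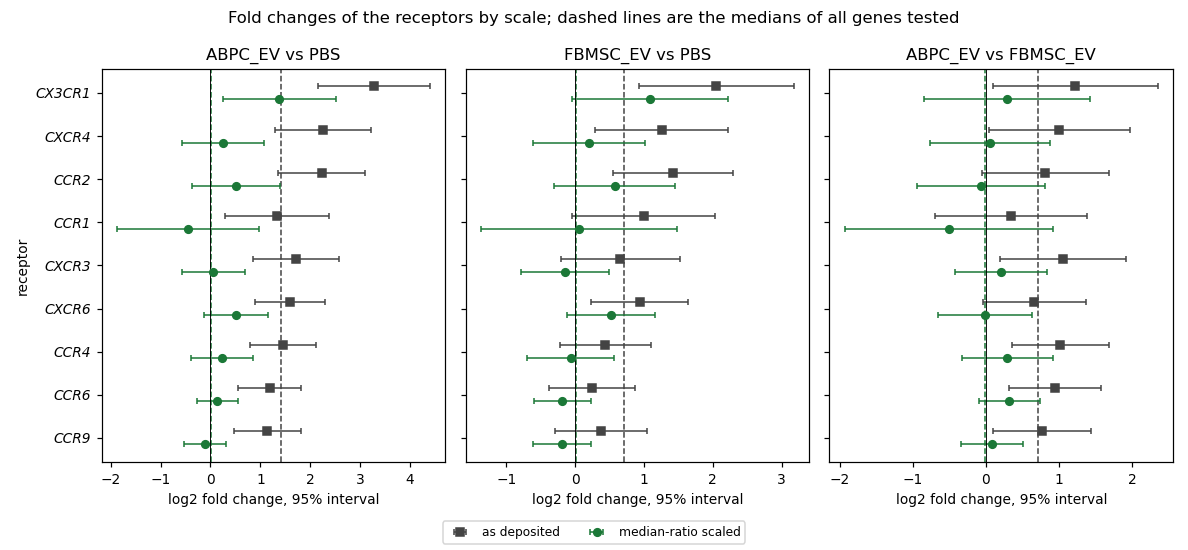
Log2 fold change with its 95% interval for each receptor in ABPC_EV vs PBS, FBMSC_EV vs PBS and ABPC_EV vs FBMSC_EV, as deposited (grey squares) and after scaling (green circles); dashed lines mark the median of all 10596 genes on each scale. As deposited the receptors lie around medians of 1.41, 0.70 and 0.71, after scaling around 0.00, 0.02 and -0.02, and CX3CR1 is farthest to the right in the 2 comparisons with PBS.

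With the erythroid genes taken out and the remainder rescaled, the receptors' values in ABPC_EV against PBS lay between those of the other 2 scales on the median. There 0 of 9 receptors passed (0.0% of all genes), at log2 fold changes of 0.26 to 2.20 with a median of 1.03, beside a median of 0.73 over 10556 genes. Of these genes, 4316 had a limma unadjusted p under 0.05. CX3CR1 had the highest value of the receptors there, 2.20 (adjusted p = 0.0864). On the recovered reads (limma-voom), 0 of 9 receptors passed in ABPC_EV against PBS, where 1 gene fell (0.00946%), and CX3CR1 was at 1.44 (adjusted p = 0.394).

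The other signalling chemokine receptors included CCR3, CCR7, CXCR1, CXCR2 and CXCR5, which were tested, and CCR8, CCR10 and XCR1, which were too low. As deposited, these 5 of 5 rose in ABPC_EV against PBS (90.9% of all genes), and 0 of 5 passed after scaling. CCR3, the eotaxin receptor of eosinophils, had the highest values, 2.85 as deposited and 1.04 after scaling (adjusted p = 0.454). CCR7 and CXCR5, which guide lymphocytes into lymph nodes and B cell follicles, rose in ABPC_EV against FBMSC_EV as deposited, by 2.12 for CCR7 (adjusted p = 0.0289) and 1.90 for CXCR5 (adjusted p = 0.0346). In that comparison 0.585% of all genes rose and 0 of the 9 receptors above passed. The scaled value of CCR7 was 12.4, 33.7 and 16.5 in ABPC_EV replicates, 9.25, 5.43 and 9.43 in FBMSC_EV replicates, and 20.5, 30.5 and 20.1 in PBS replicates. The scaled value of CXCR5 was 6.81 to 12.3 under ABPC_EV, 3.22 to 6.54 under FBMSC_EV and 8.29 to 14.7 under PBS. Neither CCR7 nor CXCR5 passed after scaling in any comparison. The CCR7 call was lost without ABPC_EV replicate 3 (adjusted p = 0.0529) and the CXCR5 call without FBMSC_EV replicate 1 (adjusted p = 0.0694). Of the atypical receptors, which bind chemokines without signalling through G proteins, ACKR1 and CCRL2 were tested and ACKR2, ACKR3 and ACKR4 were too low. ACKR1, the Duffy antigen of erythrocytes, had a log2 fold change of 0.15 as deposited and -1.25 after scaling in ABPC_EV against PBS (adjusted p = 0.316), and CCRL2 had 0.61 and -1.01 (adjusted p = 0.533).

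Of 24 ligand genes of the 9 receptors, 16 were in the table and 5 were tested. As deposited, 5 of 5 rose in ABPC_EV against PBS, beside 90.9% of all genes, and their scaled median was 0.40. CCL3, a ligand of CCR1, rested on 39, 7 and 40 recovered reads in ABPC_EV replicates, 3, 6 and 5 in FBMSC_EV replicates, and 0, 1 and 0 in PBS replicates. With so few reads under PBS, CCL3 needed EV libraries to pass the filter on low values. CCL3 rose as deposited in ABPC_EV against PBS (adjusted p = 0.000156, beside 90.9% of all genes). It also rose in ABPC_EV against FBMSC_EV (adjusted p = 0.013, beside 0.585% of all genes), where it was singled out because it passed. Its scaled log2 fold change in ABPC_EV against PBS was 1.98 (adjusted p = 0.123). CXCL10, a ligand of CXCR3, had 24, 22 and 17 reads under ABPC_EV, 6, 43 and 32 under FBMSC_EV and 3, 1 and 7 under PBS, with a scaled log2 fold change of 0.85 in ABPC_EV against PBS (adjusted p = 0.601). CCL4L1 was at -0.11.

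Below the receptors, 17 of 18 tested genes for G proteins, receptor kinases (GRKs), arrestins and regulators of G protein signalling (RGS) rose in ABPC_EV against PBS as deposited (90.9% of all genes), and 0 passed after scaling. Their scaled median was -0.34, and 15 of 18 had a negative scaled value, as did 49.8% of all genes. RGS2, which speeds the switching off of G proteins, had 166, 143 and 105 in ABPC_EV replicates, 659.9, 217 and 226 in FBMSC_EV replicates, and 283, 420.2 and 187 in PBS replicates on the scaled values. Its scaled log2 fold change in ABPC_EV against PBS was -1.05 (adjusted p = 0.498). RGS10 had -0.66, RGS1 0.63 and GRK5, a receptor kinase, 0.22, and none of these passed.

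Of the 26 motility genes (small GTPases, their regulators, PI3 kinase gamma and myosin), 25 rose in ABPC_EV against PBS as deposited (90.9% of all genes) and 0 passed after scaling, with a scaled median of -0.05. RAP1A, a GTPase that activates integrins, was the exception: its value as deposited was 165, 123 and 259 in ABPC_EV replicates, 249, 177 and 171 in FBMSC_EV replicates, and 143, 249 and 152 in PBS replicates. Its scaled log2 fold change in ABPC_EV against PBS was -2.04 (adjusted p = 0.134), the lowest of the list. The scaled value was 0.39 for MYO1G, a myosin of lymphocytes, 0.22 for PIK3R6, a subunit of PI3 kinase gamma, and -0.44 for ELMO1, a Rac activator. Of 16 tested homing partners (among them integrins and sphingosine-1-phosphate receptors), 16 rose as deposited, again beside 90.9% of all genes, and 0 passed after scaling, with a scaled median of 0.02. S1PR5, the sphingosine-1-phosphate receptor of NK cells, had the highest scaled log2 fold change, 1.24 (adjusted p = 0.396). ITGB1, an integrin subunit, had 0.38 and CD44, a hyaluronan receptor, -0.60.

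**Figure D5:**
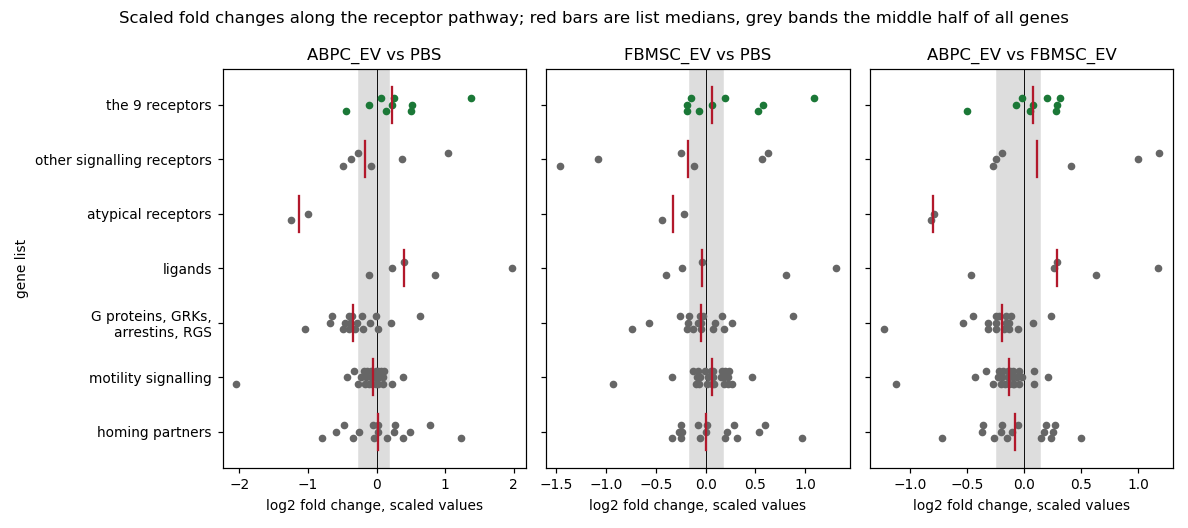
Scaled log2 fold change of each tested gene in the 9 receptors (green) and in 6 lists of the same pathway (grey), for ABPC_EV vs PBS, FBMSC_EV vs PBS and ABPC_EV vs FBMSC_EV; red bars are list medians and the grey band spans the 25th to the 75th percentile of all genes. In ABPC_EV vs PBS the median is 0.23 for the 9 receptors and -0.34 for the G protein list, and no gene passed after adjustment.

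For the remaining receptors, the gene with the most similar scaled pattern over the 9 libraries was STAC3 for CCR1 (root mean square difference 0.175), VSTM1 for CCR4 (0.132), SEPHS1 for CCR6 (0.0736), SYNJ2BP for CCR9 (0.0867), CTSF for CXCR3 (0.110) and PPA1 for CXCR6 (0.169). These differences are set against spreads of the receptors about their own means that ran from 0.196 for CCR9 to 0.814 for CCR1 in this group. LZTFL1, which lies near CCR9 in the RefSeq annotation, had a scaled log2 fold change of -0.15 in ABPC_EV against PBS, and FYCO1 had 0.22.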

How the data were processed

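Whole-blood RNA of 9 macaques was made into NEBNext Ultra libraries and sequenced on an Illumina platform with paired ends, per the labels' protocols. The genome build was Mmul_10, per the submitters' processing notes; the aligner, the counting program and its strand setting are unknown here, being not given in the sources used. The authors deposited log2 values, read here as log2(per-million value + 0.5) because they sum to the same total in every library when back-transformed; all 9 columns mapped to samples, with 0 columns not used. The receptors and lists were chosen with earlier results of these data known. The design named a count test for counts; the deposited unit is not counts, so its stated limma test was used: limma 3.58.1 with a trend (R 4.3.3) on log2(value + 1), for genes at 1 or more in 3 or more libraries, all 9 libraries in 1 fit, group as the only term, Benjamini-Hochberg adjustment over 10596 genes, threshold 0.05. A fold change on this scale understates the change of low genes. The median-ratio factors came from the 13350 genes above 0 in every library.

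Whole reads were recovered by finding, per gene, 1 divisor that makes its values whole in all libraries: 21521 of 21551 genes above 0 in 2 or more libraries (99.9%) came out whole within 0.01 read, and 0 of 1000 perturbed genes did. They gave the read totals, which leave out 30 genes with the main globins among them and so are not sequencing depths. They also gave a limma-voom alternative on 10576 genes. The scripts were tested on simulated data. The marker and pathway lists hold 270 genes, 248 of them in the table. Named genes were the receptors, the other and atypical receptors, of each pathway list the 2 tested genes with the smallest scaled p in each direction in ABPC_EV against PBS, FYCO1, LZTFL1, and for each receptor the gene closest in scaled pattern. Some genes that this rule names are not reported here. CCL3, CCR7 and CXCR5 were singled out in ABPC_EV against FBMSC_EV because they passed there. RefSeq names and neighbours come from assembly T2T-MMU8v2.0, another build, so no coordinates are given. Alternatives were other pseudocounts, filters and scalings, a fit without the trend, a fit of 2 groups only, a replicate block and leaving out each library; libraries are separate animals, but nothing else in the labels describes how the replicates were sampled.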

Additional observations from a re-analysis of the deposited data

How the results depend on the processing

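The call of all 9 receptors as risen in ABPC_EV against PBS on the deposited values held under the other pseudocounts, the mean filter, the fit of 2 groups only, the fit without the trend and the replicate block, and 8 or 9 were called when any 1 library was left out. The count fell to 0 receptors and 0 genes with the erythroid genes taken out, where 4316 of 10556 genes still had a limma unadjusted p under 0.05. On the recovered reads it was 0 receptors and 1 gene. CCR1 also lost its call with the filter at values above 0 (adjusted p = 0.077). In FBMSC_EV against PBS as deposited the main count was 28 genes and 0 receptors. It was 184 genes and 1 receptor (CX3CR1) with a pseudocount of 0.1, 1 gene with the filter at values above 0, 1063 genes and 4 receptors in the fit of 2 groups only, 0 genes with the erythroid genes out and 0 on the recovered reads, and it ran over 13 to 4562 genes (the extremes without PBS replicate 1 and without PBS replicate 3) and 0 to 4 receptors with 1 library left out. In ABPC_EV against FBMSC_EV as deposited the main count was 68 genes and 0 receptors. It was 9 genes with a pseudocount of 0.1, 13 with the filter at values above 0, 23 in the fit of 2 groups only, 13 without the trend, 0 with the erythroid genes out and 0 on the recovered reads, and it ran over 48 to 4610 genes (the extremes without PBS replicate 1 and without ABPC_EV replicate 1) and 0 to 6 receptors with 1 library left out. After scaling the counts were 0 genes in all 3 comparisons. They became 3 genes with the filter at values above 0, 2 without the trend and 1 on the recovered reads in ABPC_EV against PBS, 1 with that filter in FBMSC_EV against PBS, and 4 with that filter in ABPC_EV against FBMSC_EV. With 1 library left out they ran over 0 to 172 genes in ABPC_EV against PBS (172 without PBS replicate 3), 0 to 2 in FBMSC_EV against PBS and 0 to 1 in ABPC_EV against FBMSC_EV, with 0 receptors in each. The cause of these moves was not tested.

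The labels do not say whether libraries with the same replicate number are paired. Over genes, the deviations of same-numbered libraries from their group means correlated at -0.22 to 0.24 as deposited, over 0.1 in 2 of 9 pairs. Between libraries with other numbers the range was -0.36 to 0.33, over 0.1 in 6 of 18 pairs. After scaling, same-numbered pairs ran over -0.25 to 0.28 (median 0.075), over 0.1 in 4 of 9. Other pairs then ran over -0.42 to 0.35 (median -0.063), over 0.1 in 6 of 18. With 3 libraries per group, these correlations cannot decide whether animals are paired. With a replicate block the count was 44 genes in FBMSC_EV against PBS, 3406 genes and 3 receptors (CCR4, CCR6 and CXCR3) in ABPC_EV against FBMSC_EV, and, after scaling, 1 gene in FBMSC_EV against PBS.

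Directions turned only for log2 fold changes that had not passed, apart from CCR1 and CCR9 in ABPC_EV against PBS as deposited, which were -0.46 and -0.20 on the recovered reads. On those reads, which carry their own scaling, values as deposited turned to -0.066 for CCR4, -0.38 for CCR6, -0.35 for CCR9 and -0.25 for CXCR3 in FBMSC_EV against PBS, and to -0.54 for CCR1 and -0.040 for CCR2 in ABPC_EV against FBMSC_EV, and the scaled value of CXCR6 in that comparison turned to 0.0038. With the erythroid genes out, CCR1 turned to -0.21 against the deposited value in ABPC_EV against FBMSC_EV. Against the scaled values it gave 0.26 for CCR1 and 0.57 for CCR9 in ABPC_EV against PBS, 0.28 for CCR4, 0.0090 for CCR6, 0.11 for CCR9 and 0.23 for CXCR3 in FBMSC_EV against PBS, and 0.29 for CCR2 and 0.32 for CXCR6 in ABPC_EV against FBMSC_EV.

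With 1 library left out, directions turned within these ranges: CCR1 in ABPC_EV against FBMSC_EV as deposited, -0.19 to 0.92. After scaling in ABPC_EV against PBS the ranges were -0.085 to 0.47 for CCR4, -0.29 to 0.066 for CCR9, -0.20 to 0.28 for CXCR3 and -0.028 to 0.46 for CXCR4. In FBMSC_EV against PBS they were -0.56 to 0.50 for CCR1, -0.39 to 0.16 for CCR4, -0.40 to 0.10 for CXCR3 and -0.083 to 0.46 for CXCR4. In ABPC_EV against FBMSC_EV they were -0.95 to 0.12 for CCR1, -0.40 to 0.19 for CCR2, -0.044 to 0.35 for CXCR3, -0.21 to 0.30 for CXCR4, -0.26 to 0.19 for CXCR6 and -0.13 to 0.64 for CX3CR1. The scaled value of CX3CR1 kept its sign in both comparisons with PBS, at 0.96 to 1.73 in ABPC_EV against PBS and 0.74 to 1.499 in FBMSC_EV against PBS. The calls of CCL3, CCR7 and CXCR5 in ABPC_EV against FBMSC_EV were lost with a pseudocount of 0.1, with the filter at values above 0, without the trend, with the erythroid genes out and on the recovered reads, and those of CCL3 and CCR7 also in the fit of 2 groups only. The lowest PBS library had 10 to 31 recovered reads for CCR2, CCR4, CCR6, CCR9, CXCR3 and CXCR6, which limits their precision, and 3 animals per group limit all comparisons.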
